A study of Mus musculus with 6 samples.

Results

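The genes that flank Tmod3 on mouse chromosome 9 were followed in fetal liver that lacks Tmod3. The list held 51 genes of one stretch around Tmod3, though not every gene of it, and 50 of them had a probe set that names 1 gene. These 50 stand among 19938 genes measured, with 37 on the centromeric side of Tmod3 and 13 on the telomeric side. The remaining gene, Lipc, was not analysed here. The samples were 3 livers of Tmod3-/- embryos, labelled as small livers of anemic embryos, and 3 livers of Tmod3+/+ embryos labelled as normal, all at E14.5 on the C57BL/6J strain and each from a separate embryo. Each liver's total RNA went onto its own Affymetrix MoGene 1.0 ST array, a chip with probes along the whole transcript. The sources used here do not say how the Tmod3 allele was made.

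Tmod3 encodes tropomodulin 3, which caps the pointed ends of actin filaments. A gene next to a disrupted one can be read differently in a mutant even if its own sequence is intact, because neighbouring genes may share regulatory DNA and because DNA close to a mutated locus is inherited with it through backcrossing. The neighbours themselves have no common function. They include unconventional myosins, transcription regulators, ubiquitin ligases, a cell surface protease, enzymes of lipid and glutathione metabolism, and proteins of cilia and sperm.

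Values are given on a log2 scale as deposited, on which a difference of 1 is a 2-fold change and array medians lay between 1.36 and 1.43. The upper range differed more: the 90th percentile was 4.07 and 4.13 on WT replicates 2 and 3. It was 3.68 on WT replicate 1 and between 3.67 and 3.82 on the KO arrays. WT replicate 1 correlated at 0.983 with KO replicate 1 and with WT replicate 2, and at 0.978 with WT replicate 3. The part of this difference in the values below was not tested. Of the 50 neighbours, 29 had a mean level under 2, and of all genes at such levels 1.71% were lower in KO livers at an unadjusted p under 0.05. Tmod3 itself read 1.32, 2.36 and 1.30 in KO livers, against 4.49, 4.78 and 4.90 in WT livers, so each array matched its label. Tmod3 fell by 3.06 on the log2 scale, with an SE (standard error) of 0.27 (limma adjusted p = 0.0225). That call ended when KO replicate 1 or 3, or WT replicate 2 or 3, was left out (adjusted p between 0.0856 and 0.255). Genes whose level averaged 3 or more had a median log2 fold change of KO minus WT of -0.25, and those with a level under 2 had 0.03. The tissue matched its label: 21 of 22 hepatocyte markers and 15 of 16 erythroid markers had a mean level of at least 2, where 4656 of all 19938 genes did. Summed over each list, hepatocyte markers read 117 to 137 in KO livers and 135 to 144 in WT livers, and erythroid markers 69.5 to 75.0 in KO livers and 75.1 to 81.1 in WT livers. The other marker lists had median log2 fold changes between -0.18 (macrophage) and 0.43 (response to low oxygen and glycolysis). In whole liver, fewer cells of a type and less RNA per cell cannot be told apart, and the part of cell makeup in the values below was not tested.

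No neighbour of Tmod3 passed the threshold of 0.05 after adjustment over all genes (limma, 0 of 50), where 0.015% of all genes did. At an unadjusted p under 0.05, 8 neighbours were lower in KO livers (16% of 50, against 6.44% of all genes) and 2 were higher (4%, against 2.59%). The 8 lower ones were Tex9, Mns1, Gtf2a2, Arpp19, Adam10, Zfp280d, Leo1 and Fbxo9, and the 2 higher ones were Pygo1 and Rora. The median log2 fold change of the 50 was -0.07, where that of all genes was 0.01, and single values ran between -1.14 and 0.31. In 10 neighbours all KO arrays lay below all WT arrays (20%, against 7.1% of all genes), and in 5 they lay above (10%, against 6.14%). These shares are a description of 50 listed genes and carry no test of their own. The count of 8 lower genes was 5 without WT replicate 2 (against 3.95% of all genes), 5 without WT replicate 3 (4.46%) and 3 after the arrays were quantile normalized again (4.66%). After that step 4 neighbours were higher at the unadjusted p (against 3.05% of all genes), and 6 rather than 10 were lower without overlap (against 7.54% of all genes). The count of 2 higher genes was 0 without WT replicate 3 (against 1.6% of all genes), 3 without WT replicate 1 (3.08%) and 1 without any other single array (1.49% to 2.97%).

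**Figure D1:**
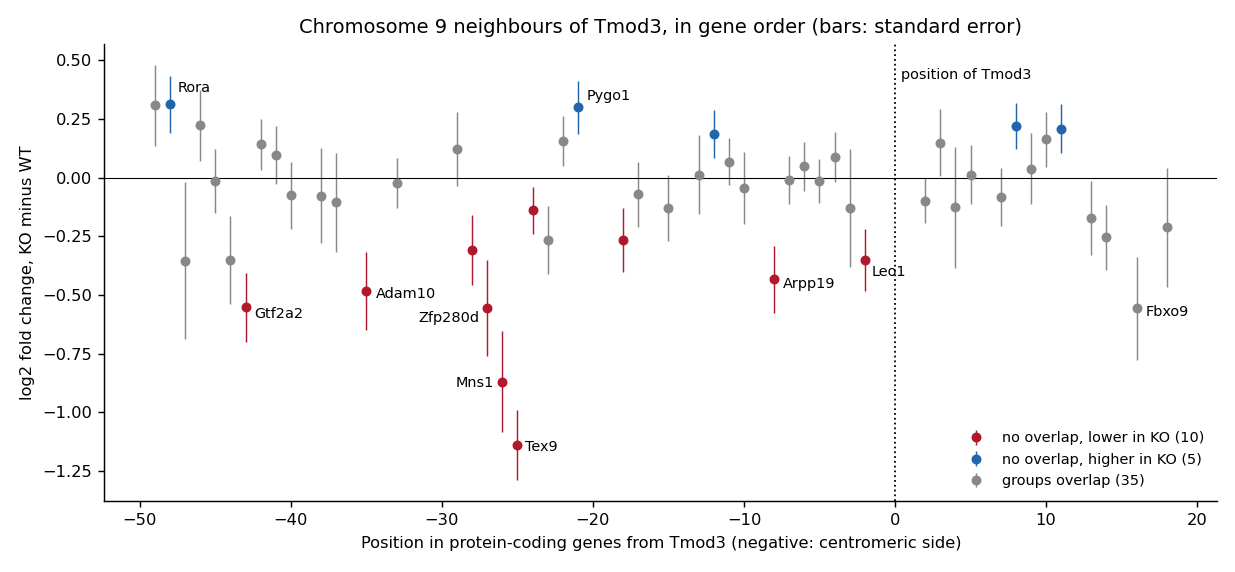
Log2 fold change of KO minus WT for the 50 measured neighbours (y axis) against their position in protein-coding genes from Tmod3 (x axis, negative on the centromeric side), with bars for the standard error. Tex9 (-1.14), Mns1 (-0.87) and Zfp280d (-0.56) are consecutive genes 25 to 27 places from Tmod3. Among the 10 nearest on each side, Arpp19 (-0.43) and Leo1 (-0.35) lie lowest. The others, most of them at mean levels under 2, lie between -0.17 (Gclc) and 0.22 (Fam83b). Tmod3 itself (-3.06) is off the scale and only its position is marked.

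The neighbour with the smallest p was Tex9, a testis-expressed gene 25 protein-coding genes away on the centromeric side. Tex9 read 2.44, 2.86 and 2.49 in KO livers, against 3.55, 3.90 and 3.76 in WT livers. All KO arrays lay below all WT arrays, and the gap between the groups was wider than the spread inside either. The log2 fold change of Tex9 was -1.14 ± 0.15 (SE), or 2.20-fold lower in KO livers as measured (limma adjusted p = 0.103, not past the threshold). The adjusted p of Tex9 was 0.0399 without WT replicate 1, 0.0419 with array weights and 0.0360 over the 2545 genes at levels of 3 or more, and it did not pass in any of the other 11 alternatives. Tex9 was among those 2545 genes only through the WT group (mean 3.74, against 2.60 in KO livers). The value of 0.0360 is therefore no separate support.

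Mns1 is the adjacent gene, at 26 places, and encodes a coiled-coil protein of motile cilia and sperm tails. Mns1 read 8.33, 8.10 and 7.62 in KO livers, against 9.07, 9.07 and 8.52 in WT livers. The groups did not overlap, and in both the third replicate was the lowest. The log2 fold change of Mns1 was -0.87 ± 0.22 (SE; limma adjusted p = 0.295). Next to Mns1 on its other side lies Zfp280d, a zinc finger gene at 27 places, with 2.72, 2.64 and 2.55 in KO livers against 2.80, 3.67 and 3.11 in WT livers. The KO arrays of Zfp280d were close together, and WT replicate 1 stood only slightly above them. Zfp280d had a log2 fold change of -0.56 ± 0.21 (SE; limma adjusted p = 0.478), and -0.31 without WT replicate 2.

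The genes on both sides of these 3 had smaller differences. Rfx7, a transcription factor of the RFX family at 24 places, read 1.73, 1.70 and 1.66 in KO livers and 1.95, 1.81 and 1.75 in WT livers, a log2 fold change of -0.14 (limma adjusted p = 0.760). Tcf12, the basic helix-loop-helix factor HEB at 28 places, read 2.49, 3.05 and 2.86 in KO livers and 3.07, 3.08 and 3.17 in WT livers. The KO arrays of Tcf12 lay just below the WT arrays, with a log2 fold change of -0.31 (limma adjusted p = 0.599). Without KO replicate 1 the Tcf12 value was -0.15, and after renewed quantile normalization it was -0.14. From Tcf12 to Rfx7, 5 consecutive neighbours thus had no overlap between groups, all lower in KO livers and none past the adjusted threshold. This run of 5 neighbours was picked out after its values were seen.

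Mns1 lies on the plus strand and Tex9 on the minus strand, so they point towards each other, and in the RefSeq annotation of GRCm38.p6 their spans overlap at the ends. Whether any probe lies in the overlap was not examined. Promoters of the 3 genes are shown because they are consecutive genes, each lower in KO livers at an unadjusted p under 0.05. Each runs from 250 bases before to 50 after a RefSeq gene start, 5′ to 3′ on the strand of its gene: Zfp280d at chr9:72274638-72274937 (plus), Mns1 at chr9:72438279-72438578 (plus) and Tex9 at chr9:72491910-72492209 (minus). Capitals mark matches, on either strand, to the GATA motifs AGATAA and TGATAA, the CCAAT box CCAAT and the GC box GGGCGG.
Zfp280d: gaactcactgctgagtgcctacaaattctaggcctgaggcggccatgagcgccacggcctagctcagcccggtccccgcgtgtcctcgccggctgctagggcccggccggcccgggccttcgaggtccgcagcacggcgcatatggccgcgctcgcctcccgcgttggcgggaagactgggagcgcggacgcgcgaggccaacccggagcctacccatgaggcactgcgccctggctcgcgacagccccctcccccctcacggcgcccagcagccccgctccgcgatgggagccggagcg
Mns1: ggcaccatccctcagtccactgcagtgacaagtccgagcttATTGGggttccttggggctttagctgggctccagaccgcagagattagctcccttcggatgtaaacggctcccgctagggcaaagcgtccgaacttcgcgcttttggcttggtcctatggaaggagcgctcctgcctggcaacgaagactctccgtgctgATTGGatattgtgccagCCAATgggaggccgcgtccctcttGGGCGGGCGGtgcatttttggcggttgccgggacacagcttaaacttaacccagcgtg
Tex9: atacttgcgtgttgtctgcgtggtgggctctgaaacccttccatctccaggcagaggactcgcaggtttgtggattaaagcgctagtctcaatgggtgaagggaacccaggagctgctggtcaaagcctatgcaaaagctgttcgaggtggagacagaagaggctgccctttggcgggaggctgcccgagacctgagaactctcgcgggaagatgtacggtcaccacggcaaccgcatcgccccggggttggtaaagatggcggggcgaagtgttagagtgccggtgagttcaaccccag

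The Mns1 promoter held 3 matches to CCAAT, 2 of them read on the opposite strand, and 2 overlapping matches to GGGCGG. Over all 32851 promoters of the table, 37.4% held CCAAT, 35.7% GGGCGG, 11.2% AGATAA and 9.05% TGATAA. The promoters of Zfp280d and Tex9 had no match to these 4 motifs in this window, and none of the 3 had a GATA motif. Promoters of 43 of the 51 listed genes were found in the table.

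**Figure D2:**
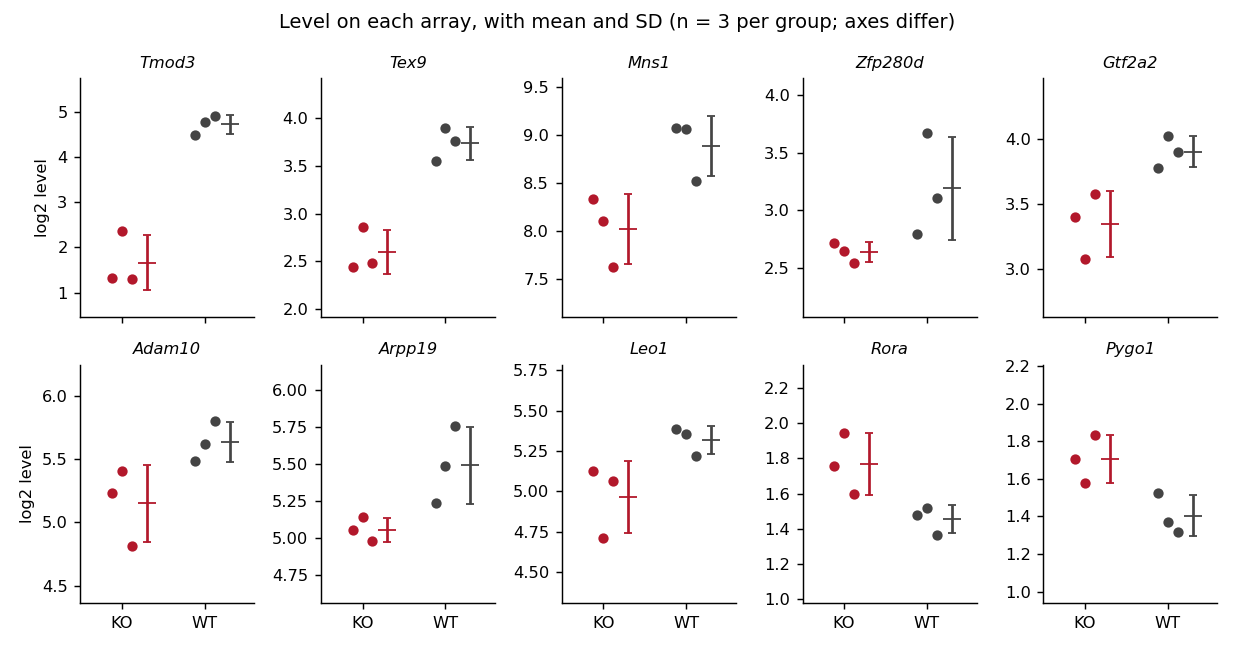
Log2 level (y axis, its range differs between panels) on each KO and WT array for Tmod3 and 9 neighbours, with points for replicates 1 to 3 from left to right and a bar for the mean and SD of 3 arrays. KO points lie below WT points in every panel except Rora and Pygo1, where they lie above; Zfp280d and Leo1 show how narrow some gaps are.

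None of the 3 nearest measured neighbours on each side passed the adjusted threshold (limma), and their log2 fold changes ran between -0.35 and 0.15. On the centromeric side the nearest measured neighbour was Leo1, a subunit of the PAF1 complex that travels with RNA polymerase II. Leo1 read 5.13, 4.71 and 5.06 in KO livers, against 5.38, 5.35 and 5.22 in WT livers. The groups did not overlap, though KO replicate 1 and WT replicate 3 were close, and the log2 fold change was -0.35 ± 0.13 (SE; limma adjusted p = 0.488). Renewed quantile normalization brought the Leo1 value to -0.13.

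Mapk6, which encodes the atypical kinase ERK3, came next. It read 2.07, 2.06 and 1.89 in KO livers and 1.52, 2.26 and 2.63 in WT livers, where the spread covered the whole KO range (log2 fold change -0.13, 95% interval -0.70 to 0.45). Bcl2l10, a member of the BCL2 family of survival and death genes, read 1.07, 1.03 and 0.95 in KO livers and 0.98, 0.79 and 1.02 in WT livers, below the array medians in both. On the telomeric side, Tmod2, the tropomodulin gene of neurons that adjoins Tmod3, read 1.34, 1.42 and 1.48 in KO livers and 1.49, 1.23 and 1.58 in WT livers. Its groups overlapped at the level of the array medians, with a log2 fold change of -0.02 (limma adjusted p = 0.978).

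Lysmd2, a gene with a LysM domain, read 1.09, 1.19 and 1.16 in KO livers and 1.27, 1.17 and 1.30 in WT livers. Scg3, a granin of secretory granules, read 1.14, 1.02 and 1.36 in KO livers and 1.26, 0.99 and 0.84 in WT livers. Both lay at or below the array medians with overlapping groups, and their log2 fold changes were -0.10 (95% interval -0.32 to 0.12) and 0.15 (-0.18 to 0.48). Bmp5, a ligand of the bone morphogenetic protein family, read 2.72, 1.998 and 2.13 in KO livers and 1.99, 2.89 and 2.35 in WT livers, with a log2 fold change of -0.13 (-0.72 to 0.47).

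Over the 10 nearest measured neighbours on each side, 2 of 20 were lower at an unadjusted p under 0.05 (Leo1 and Arpp19) and 0 were higher (limma). Of all genes 6.44% were lower and 2.59% higher. The median log2 fold change of the 20 was 0.00. Among the 30 farther neighbours 6 were lower and 2 higher, with a median of -0.12. By side, the median was -0.07 for the 37 centromeric neighbours and -0.08 for the 13 telomeric ones. At an unadjusted p under 0.05, 7 centromeric neighbours were lower and 2 higher, while 1 telomeric neighbour was lower and 0 higher (limma). Groups without overlap were found in 13 centromeric neighbours, 10 of them lower, and in 2 telomeric ones, both higher, where 13.2% of all genes had none (7.1% lower and 6.14% higher). The 2 higher telomeric genes are 15.4% of their side, against 6.14% of all genes. On the centromeric side, 27% were lower (against 7.1%) and 8.11% higher (against 6.14%). The difference between near and far, or between the sides, was not tested, and 10 of the centromeric but 3 of the telomeric neighbours had a mean level of at least 3. Of the 13 neighbours at such levels, only Leo1, Arpp19 and Gclc were among the 20 nearest. Most of the 20 nearest had a mean level under 2, so near and far differed in level as well. For comparison, the 1114 other genes of chromosome 9 had a median of 0.01, with 6.28% lower and 2.33% higher at an unadjusted p under 0.05.

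**Figure D3:**
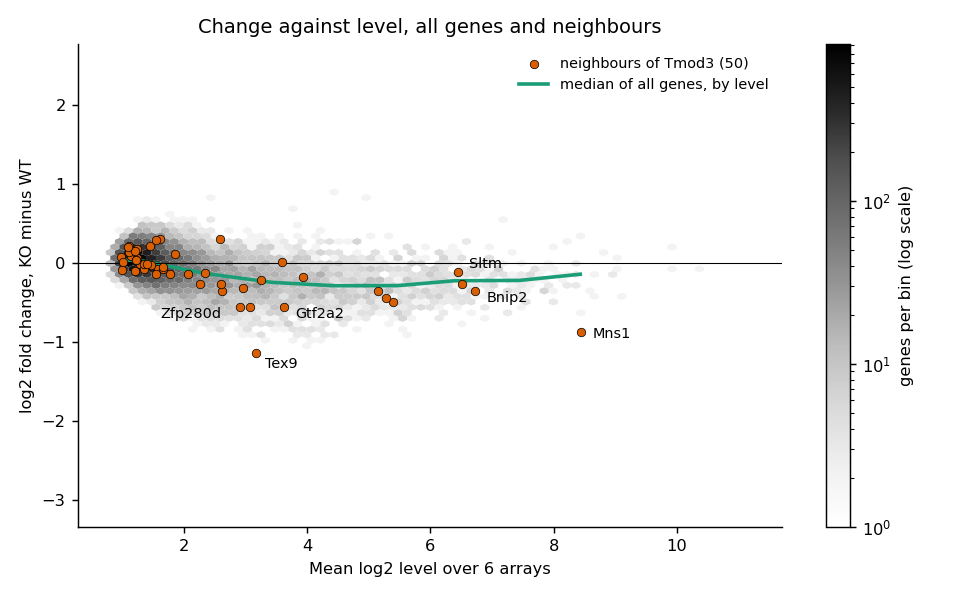
Log2 fold change of KO minus WT (y axis) against mean log2 level over 6 arrays (x axis), with all 19938 genes as grey bins, their median by level as a line and the 50 neighbours as points. Most neighbours sit at levels under 2 around 0, and those at higher levels mostly follow the line below 0; Tex9 and Mns1 lie lower, and Vps13c and Rsl24d1 above 0.

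Expressed neighbours mostly had values below 0, as did expressed genes in general. The 13 with a mean level of at least 3 had a median log2 fold change of -0.35, against -0.25 over the 2545 genes of that level. Of these 13, 12 lay below 0 (92.3%, against 80.6% of genes of that level), and 7 had an unadjusted p under 0.05 and were lower (53.8%, against 26.6%). Tex9 and Fbxo9, both among the 7, reached that level only through the WT group (KO means 2.60 and 2.80). After renewed quantile normalization 2 of the 13 were lower under that p (against 13.2% of genes of that level) and the medians were -0.21 and -0.06. Without WT replicate 3 the count was 4 of 13, against 19.4% of genes of that level. The 8 neighbours at levels between 2 and 3 had a median of -0.26, against -0.13. Among the 29 at levels under 2, 0 were lower and 2 were higher at an unadjusted p under 0.05 (limma), against 1.71% and 2.7% of genes of that level, with a median of 0.05 against 0.03.

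**Figure D4:**
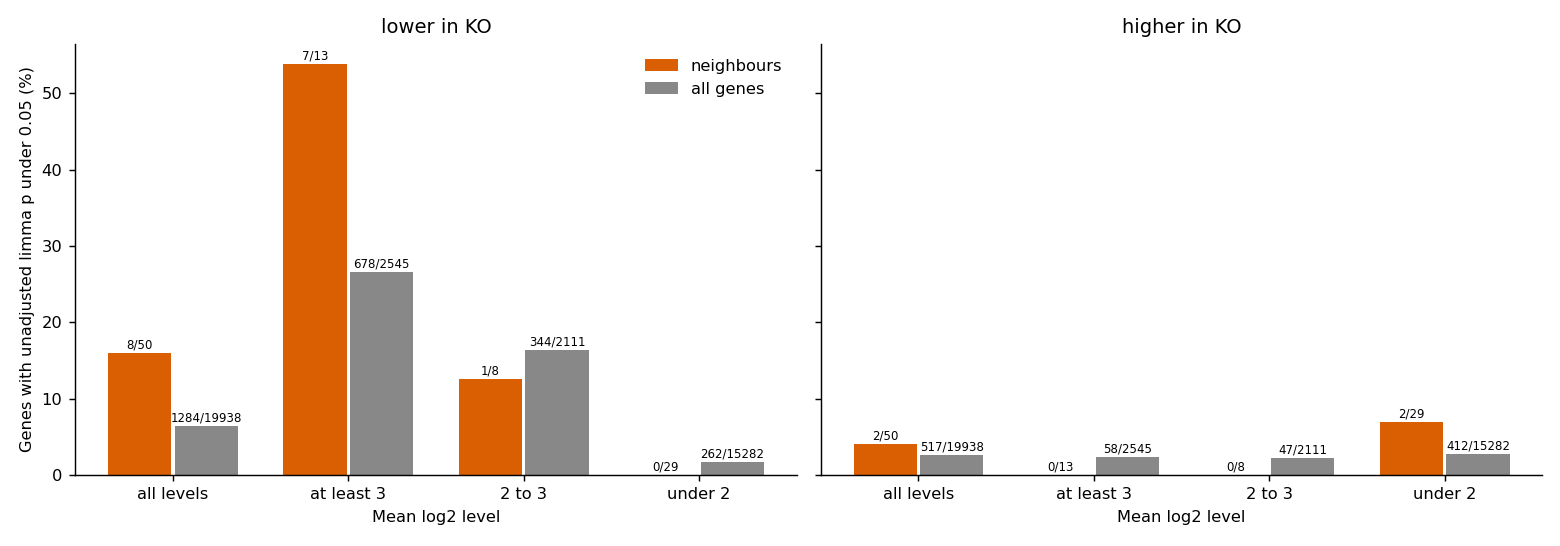
Share of genes with an unadjusted limma p under 0.05 (y axis, percent) that were lower (left) or higher (right) in KO livers, for neighbours and for all genes, by mean log2 level (x axis), with counts above the bars. The share of lower neighbours was 53.8% at levels of at least 3, where it was 26.6% for all genes. At levels under 2 it was 0 of 29, where it was 1.71% for all genes. Among the lower neighbours at levels of at least 3, Tex9 and Fbxo9 reached that level only through the WT group.

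The 13 neighbours that act in transcription or on RNA went both ways. At an unadjusted p under 0.05, 3 were lower and 2 higher (against 6.44% and 2.59% of all genes), and the median log2 fold change was -0.11. Gtf2a2, the small subunit of the general factor TFIIA, read 3.40, 3.07 and 3.57 in KO livers, against 3.78, 4.02 and 3.90 in WT livers. Its groups stood apart, with a log2 fold change of -0.55 ± 0.15 (SE; limma adjusted p = 0.323). Rora, the nuclear receptor ROR alpha, read 1.76, 1.95 and 1.59 in KO livers and 1.48, 1.52 and 1.37 in WT livers, a log2 fold change of 0.31 (limma adjusted p = 0.501). Pygo1, a cofactor of beta-catenin in Wnt signalling, read 1.70, 1.58 and 1.83 in KO livers and 1.52, 1.37 and 1.32 in WT livers, a log2 fold change of 0.30 (limma adjusted p = 0.488). Both genes were higher on every KO array, but at levels not far above the array medians. Sltm, a chromatin-associated RNA binding protein gene, read 6.67, 6.04 and 6.47 in KO livers and 6.60, 6.78 and 6.12 in WT livers, with overlapping groups and a log2 fold change of -0.11 (95% interval -0.59 to 0.38). Rsl24d1, a factor of ribosome assembly, had a log2 fold change of 0.01 (-0.37 to 0.40), and its other probe set gave 0.04.

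Among 6 signalling genes and 2 genes of proteases and matrix, 2 well measured members were lower on every KO array. Of all genes at levels of at least 3, 21.3% were lower without overlap. Adam10, the metalloprotease that sheds the ectodomains of Notch and other surface proteins, read 5.23, 5.41 and 4.81 in KO livers, against 5.48, 5.62 and 5.80 in WT livers. The nearest KO and WT values of Adam10 were those of KO replicate 2 and WT replicate 1, and the log2 fold change was -0.48 ± 0.17 (SE; limma adjusted p = 0.440). Arpp19, a phosphoprotein that restrains the phosphatase PP2A at mitotic entry, read 5.06, 5.14 and 4.98 in KO livers, against 5.24, 5.49 and 5.76 in WT livers. The KO arrays of Arpp19 were close together and below each WT array, with a log2 fold change of -0.43 ± 0.14 (SE; limma adjusted p = 0.417). Gnb5, a G protein beta subunit, and Hcrtr2, an orexin receptor, had log2 fold changes of -0.01 and -0.08 with overlapping groups.

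The 3 ubiquitin ligase genes had log2 fold changes between -0.56 and -0.08, the last being that of Rnf111, a ligase of TGF-beta signalling, whose groups overlapped. Fbxo9, an F-box subunit of SCF ligases, read 2.71, 2.77 and 2.91 in KO livers and 2.86, 3.82 and 3.39 in WT livers. WT replicate 1 lay within the KO range, and the log2 fold change of -0.56 had an SE of 0.22 (limma adjusted p = 0.511). Nedd4, a HECT ligase, read 6.36, 6.31 and 6.46 in KO livers and 6.33, 6.77 and 6.82 in WT livers. Here too WT replicate 1 stood with the KO arrays, and the log2 fold change was -0.27 (limma adjusted p = 0.674).

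Genes of cell survival and stress included Bnip2, which encodes a BCL2 interacting protein. Bnip2 read 6.67, 6.42 and 6.57 in KO livers and 6.46, 7.11 and 7.14 in WT livers, with WT replicate 1 among the KO values and a log2 fold change of -0.35 (limma adjusted p = 0.655). Without WT replicate 1 the Bnip2 value was -0.57. Ccpg1, a receptor for autophagy of the endoplasmic reticulum, read 2.58, 2.64 and 2.19 in KO livers and 2.68, 2.76 and 2.77 in WT livers. Its groups did not overlap by a small margin, with a log2 fold change of -0.27 (limma adjusted p = 0.631) and -0.13 without KO replicate 3.

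In the 5 measured genes of liver metabolism and glutathione, the groups overlapped in each. Gclc, the catalytic subunit of the first enzyme of glutathione synthesis, read 3.67, 4.03 and 3.84 in KO livers and 3.75, 4.04 and 4.27 in WT livers (log2 fold change -0.17, limma adjusted p = 0.811). Gsta4, a glutathione transferase for lipid aldehydes, read 3.39, 3.03 and 3.02 in KO livers and 2.85, 3.28 and 3.94 in WT livers (-0.21, adjusted p = 0.870). Neither gene separated the genotypes. Elovl5, an elongase of polyunsaturated fatty acids, had -0.26, Aqp9, a glycerol channel of hepatocytes, had -0.02, and Hmgcll1, a lyase gene related to that of ketone body synthesis, had 0.01. For hepatocyte markers the median was -0.44, with 6 of 22 lower and 0 higher at an unadjusted p under 0.05 (limma), where 26.6% of all genes at levels of at least 3 were lower. Erythroid markers had a median of -0.38, with 8 of 16 lower and 0 higher at that p. In the list for response to low oxygen and glycolysis, 0 of 17 were lower and 9 higher, where 2.59% of all genes were higher.

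The 5 genes of the actin, myosin and membrane cytoskeleton, the class closest to the function of Tmod3, were near the floor. Anxa2, Myo1e, Myo5a, Myo5c and Cgnl1 read between 1.01 and 2.14 on single arrays, each with overlapping groups, and their log2 fold changes ran between -0.08 and 0.22. Genes of vesicles and secretion (Vps13c, Rab27a, Unc13c and Scg3) had values between -0.13 and 0.31. Unc13c, a synaptic priming factor, had 7 probe sets whose log2 fold changes ran between -0.13 and 0.26. Fam83b and Lrrc1 were the 2 telomeric neighbours without overlap. Fam83b, a scaffold of MAP kinase signalling, read 1.28, 1.21 and 1.15 in KO livers and 0.97, 0.97 and 1.04 in WT livers, all below the array medians (log2 fold change 0.22, limma adjusted p = 0.557). Lrrc1, a leucine-rich repeat gene, read 1.18, 1.09 and 1.34 in KO livers and 1.04, 1.01 and 0.93 in WT livers, likewise below those medians (0.21, adjusted p = 0.632). The remaining neighbours (Ice2, Foxb1, Gcnt3, Fam81a, Prtg, Pigb, Wdr72, Onecut1, Tinag and Mlip) had overlapping groups and log2 fold changes between -0.35 (Ice2) and 0.16 (Mlip).

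**Figure D5:**
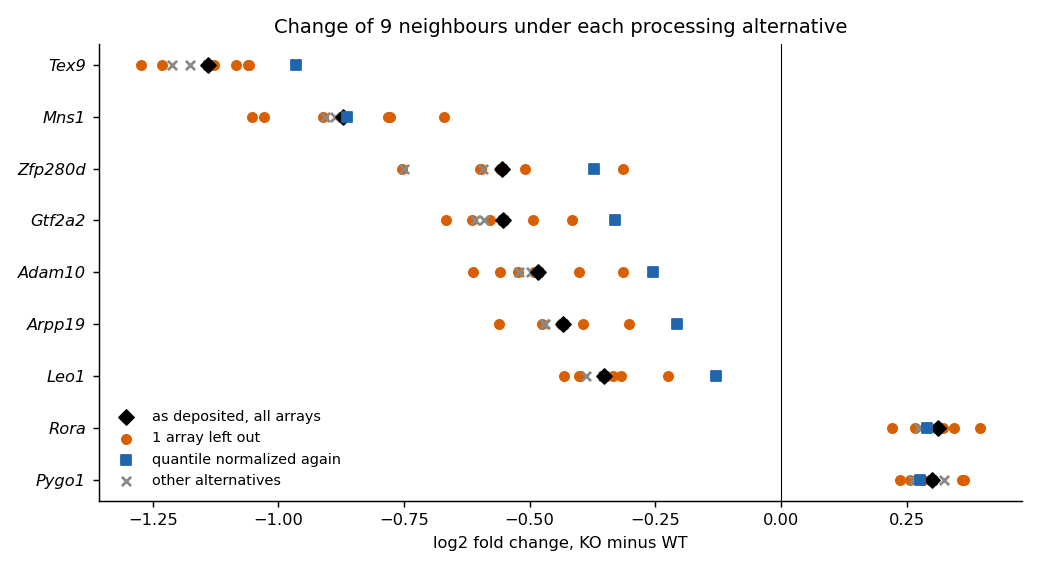
Log2 fold change of KO minus WT (x axis) for 9 neighbours (rows) as deposited, with 1 array left out, after renewed quantile normalization and under the other alternatives. Tex9 stays between -1.27 and -0.96 and Mns1 between -1.05 and -0.67, while Adam10, Arpp19 and Leo1 come closest to 0 after renewed quantile normalization.

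Across the 14 alternatives, Tex9 kept its direction in each, as did Mns1, Gtf2a2, Arpp19, Adam10 and Leo1. Since the groups of these genes did not overlap, leaving out or weighting arrays could not reverse it. Most other alternatives left the log2 fold change itself unchanged. The direction was open only under renewed quantile normalization and centring on array medians. Renewed quantile normalization left the value of Tex9 at -0.96 (limma adjusted p = 0.0787) and that of Mns1 at -0.86 (adjusted p = 0.383). The same step brought Gtf2a2 to -0.33, Adam10 to -0.25 and Arpp19 to -0.21.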

How the data were processed

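RNA of 6 fetal livers (3 KO, 3 WT) was labelled with biotin and hybridised to MoGene 1.0 ST arrays, per the labels' protocols. Values for each probe set on each array were deposited as the authors made them with RMA, per the submitters' processing notes, and their unit is log2 as read from the range of the values. Arrays have no read depth, and their number limits the precision. Of 28853 probe sets, 21789 had 1 symbol in the platform annotation, 1621 had several and 5443 were not named there. Each gene was represented by its brightest probe set. Gene order came from a RefSeq gene table of GRCm38.p6, which held 51 of the 51 listed genes, and was counted in protein-coding genes.

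KO was set against WT with limma 3.58.1 (R 4.3.3; a two-sided moderated linear model without covariates), fitted on 19938 genes with Benjamini-Hochberg adjustment over all of them and a threshold of 0.05. The members, roles and marker lists were chosen with earlier results of these data known. Per-array values were given for the 12 neighbours with the smallest p among those without overlap, the 3 nearest on each side and the 6 with the highest mean level, and for others chosen after their values were seen. Simulated data on 19938 genes of the KO and WT comparison held 200 changed genes, in 20 runs. There limma recovered 75.3% of genes changed by 1 and 96.3% of those changed by 2, with 4.64% of calls false. Recovery after adjustment depends on how many genes change, and 3 genes passed in the data themselves. These shares are therefore not the power of this comparison. The noise was normal and independent.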

Additional observations from a re-analysis of the deposited data

How the results depend on the processing

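After renewed quantile normalization, 3 neighbours were lower and 4 higher at an unadjusted p under 0.05 (against 4.66% and 3.05% of all genes). Without overlap 6 were lower (against 7.54%), and the telomeric median was -0.0083. Of the 13 neighbours with a mean level of at least 3, 2 were lower at that p, against 13.2% of genes of that level. Bmp5 (0.0067) and Sltm (0.042) changed sign. Centring on array medians left 1 higher neighbour (against 1.5% of all genes). Array weights gave 1 neighbour past the adjusted threshold, with 11 of all genes, and 4 higher at the unadjusted p (against 4% of all genes). Among genes at mean levels of at least 2, 0 neighbours were higher at that p (limma, against 1.29% of all genes), 0 were higher without overlap (2.45%), and the medians were -0.31 over all neighbours, -0.35 on the centromeric and -0.21 on the telomeric side. With at least 3, 1 passed the adjusted threshold, with 15 of all 2545 genes. It was Tex9, which reached that level only through the WT group (KO mean 2.60). At the unadjusted p, 5 were lower and 0 higher (against 17.2% and 1.26%). Without overlap, 6 were lower and 0 higher (against 21.3% and 2.2%), and the medians were -0.35, -0.39 and -0.21. For the 10 nearest on each side, 2 were lower and 0 higher at the unadjusted p (against 6.44% and 2.59% of all genes). Without overlap 2 were lower and 3 higher (against 7.1% and 6.14%), and the medians were 0.00043, -0.012 and 0.025.

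With 1 array left out in turn, Tmod3 lay between -3.41 and -2.88 and lost its call in 4 of the 6 fits. In these fits 0 to 1 neighbours passed the adjusted threshold. At the unadjusted p, 5 to 10 were lower and 0 to 3 higher (against 3.95% to 11.2% and 1.49% to 3.08% of all genes). Without overlap, 10 to 16 were lower and 6 to 10 higher (against 9.97% to 17.2% and 9.83% to 15%). Of the 13 with a mean level of at least 3, 4 to 8 were lower at the unadjusted p, against 15.1% to 45.1% of genes of that level. The count of 8 came without WT replicate 1, where that share was 45.1%. Overlap is rarer by construction with 5 arrays, and without WT replicate 1, 95 of all genes passed the adjusted threshold. The median lay between -0.05 and -0.04 over all neighbours, between -0.07 and -0.04 on the centromeric and between -0.070 and -0.023 on the telomeric side. Bmp5 ranged between -0.35 and 0.11, Sltm between -0.30 and 0.069 and Mapk6 between -0.44 and 0.12. The cause of these shifts was not tested.

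With the replicate number as a block, Tmod3 kept -3.06 but lost its call (limma adjusted p = 0.0897), and 0 of all genes passed, where 6.61% were lower and 2.36% higher at the unadjusted p. Deviations from the group means correlated at 0.107, 0.0566 and -0.105 for replicates 1, 2 and 3, and only KO replicate 1 correlated best with its own number. Deviations from a mean of 3 arrays are tied to each other. These values therefore cannot tell whether arrays of the same number were paired in any way. The count for levels of at least 3 was added after the data were seen. Scanner files were not used here, so background correction could not be varied, and 29 of the 50 neighbours had a mean level under 2, near the array medians.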

Other observations

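Besides the listed genes and Tmod3, 16 protein-coding genes lie within the same stretch of chromosome 9, and 12 of them were measured. Their median log2 fold change was 0.00, 9 had a mean level under 2, and 0 passed the adjusted threshold (limma), with 1 lower and 0 higher at an unadjusted p under 0.05, where 6.44% of all genes were lower and 2.59% higher. That gene was Ccnb2, which encodes cyclin B2 of mitotic entry. Ccnb2 read 4.84, 5.49 and 5.15 in KO livers, against 5.39, 5.94 and 6.28 in WT livers. WT replicate 1 lay below KO replicate 2, and the log2 fold change was -0.71 ± 0.24 (SE; limma adjusted p = 0.439).

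Mindy2, a deubiquitinase gene, read 6.73, 7.85 and 7.03 in KO livers and 7.34, 7.73 and 7.30 in WT livers. Polr2m, a gene linked to RNA polymerase II, read 5.65, 6.24 and 5.76 in KO livers and 5.77, 6.37 and 6.05 in WT livers. Both had overlapping groups, with log2 fold changes of -0.25 and -0.18. Dnaaf4, an assembly factor of ciliary dynein, and Fam214a were higher without overlap at levels near the array medians (0.14 and 0.24, limma adjusted p = 0.738 and 0.586). They were 2 of the 12 measured, and 0 were lower without overlap, where 6.14% of all genes were higher and 7.1% lower.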
